A study of Mus musculus with 6 samples.

Results

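The genes described here are the chromatin regulators on a splicing-sensitive array: those whose symbol begins with a prefix such as Smarc, Hdac, Sirt, Jmjd, Jarid, Setd, Suv, Mll, Chd, Baz, Brd, Phf, Ing, Dnmt, Mbd, Myst, Ehmt, Prmt, Ncor, Nsd, Whsc, Cbx, Ezh or Arid. The rule took 114 of the 7788 genes in the deposited table, with 220 of its 13002 named RNA processing events. Events inside the congenic interval at chr19:7053631-11866235 were to be left out, and 0 events of these genes lay there. The rule goes by name, so it also took a few genes with other known functions, among them *Mllt4*, which encodes the cell junction protein afadin, and the mitochondrial sirtuin *Sirt3*.

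Brain RNA came from 6 mice of a B6.CAST congenic line, 3 homozygous for *Nxf1* CAST and 3 for *Nxf1* B6, which encode different forms of the major mRNA export factor. The *Nxf1* CAST animals carried the *M. m. castaneus* haplotype over the whole congenic interval, not at *Nxf1* alone. The animals were 3 same-sex littermate pairs of opposite genotype, and each was hybridized to 1 Affymetrix MJAY array. One female pair was 46 days old at generation N37F1, the other was 23 days old at N36F2, and the male pair, also N36F2, was 22 days (*Nxf1* B6) and 23 days (*Nxf1* CAST). The comparison asks whether the *Nxf1* allele is accompanied by other choices between RNA isoforms.

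Chromatin regulators move, mark or read the nucleosomes on which DNA is packed. Remodelling complexes slide or eject nucleosomes, writers add acetyl or methyl groups to histone tails or to cytosine, erasers take them off, and readers bind the marked residue through a bromodomain, chromodomain, PHD finger or methyl-CpG binding domain. In brain many of these proteins exist in several isoforms, and subunit exchange in the SWI/SNF complex accompanies the passage from dividing progenitor to neuron.

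For each event the deposited table lists the intensity of the exclusion probe sets and of the inclusion probe sets for 2 sets of arrays called A and B, each as 1 pooled number. The table does not tie the sets to a genotype. Its header defines a score with the mutant in the numerator and speaks of 3 controls compared with 3 experiments, so set B was likely *Nxf1* CAST, but this rests on the order in the header alone and values are given by set. Positions are those of the table, whose genome build is not given in the sources used here. The measure used throughout is the log2 ratio, that is the log2 of exclusion over inclusion intensity in set B divided by the same quantity in set A, so a value above 0 means relatively more exclusion in set B. The exclusion path is the one the table marks as skipped, for cassettes, retained introns and alternative splice sites the form without the named segment. An event was counted as past the fold when its absolute log2 ratio was over 0.5, a difference of more than 1.41-fold. The intensities are not given per animal, so no spread between replicates, no error and no test could be computed from them, and the authors' own scores and q-values were not used, so a difference past the fold is a size, not a call against replicate error. Each set pooled 3 arrays, and this limits the precision of every value.

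Intensities ran from 43 to 13185 over all events, with a median of 291, and from 51 to 8835 in the chromatin regulators, with a median of 376. Of marker genes for the cells of brain, 7 of 8 neuronal genes, 3 of 4 astrocyte, 3 of 5 oligodendrocyte and 2 of 4 microglial genes had an event. The summed intensity of their events ran from 231 to 20035 in set A and from 213 to 19107 in set B for neurons, from 1911 to 12338 and from 2072 to 12506 for astrocytes, from 1581 to 13379 and from 1705 to 12454 for oligodendrocytes, and from 625 to 1086 and from 677 to 1231 for microglia. Markers of blood (1 of 4 genes, 839 in set A against 968 in set B) and muscle (2 of 4, from 223 to 528 and from 228 to 577) also had values, and none of 4 liver markers had an event. In whole brain RNA, fewer cells of a type and less RNA per cell cannot be told apart, and the part of cell composition in the ratios was not tested.

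An exclusion to inclusion ratio could be formed for 210 events in 112 of the 114 genes. Another 7 events were complex choices between several paths with no exclusion path, and 3 events, in *Mllt11*, *Baz2b* and *Dnmt1*, had no intensities. The 21 paths of those 7 complex events had log2 ratios from -0.44 to 0.40, none past the fold.

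Isoform balance in the chromatin regulators differed between the sets about as much as in the rest of the table. The median absolute log2 ratio was 0.17 over the 210 events and 0.17 over all 12553 events. Past the fold were 18 events (8.57%), against a background of 7.24% of all events. In 11 the log2 ratio was above 0.5 (background 4.52%) and in 7 it was below -0.5 (background 2.72%). The 18 events lay in 18 different genes, or 16.1% of the 112, against 11.4% of all genes. Chromatin regulators had more events each, however, 1.88 per gene against 1.64 in other genes. With 1 event a gene, the one of highest summed intensity, 8 of 112 genes (7.14%) were past the fold against 7.26% of all genes.

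No event of a chromatin regulator differed 2-fold between the sets, and 0.22% of all events did. The largest difference above 0 was in *Phf14*, at a log2 ratio of 0.76, and the largest below 0 in *Ing1*, at -0.73. All events of the table, which are far more in number, ran from -1.61 to 2.13. The log2 ratio was above 0 in 129 of 210 events (61.4%), against 55.4% of all events. Their median log2 ratio was 0.08, against 0.03 over all events. Once the median of all events was subtracted, 53.8% of the chromatin regulator events lay above 0. By construction this subtraction splits all events evenly about 0, so the share of the chromatin regulators was still the larger one. The gap was smaller with 1 event a gene, 58.0% against 55.8%, and with 50 added to every intensity, 58.6% against 55.7%. With all 4 intensities at 100 or more it was larger, 63.5% against 55.8%.

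**Figure D1:**
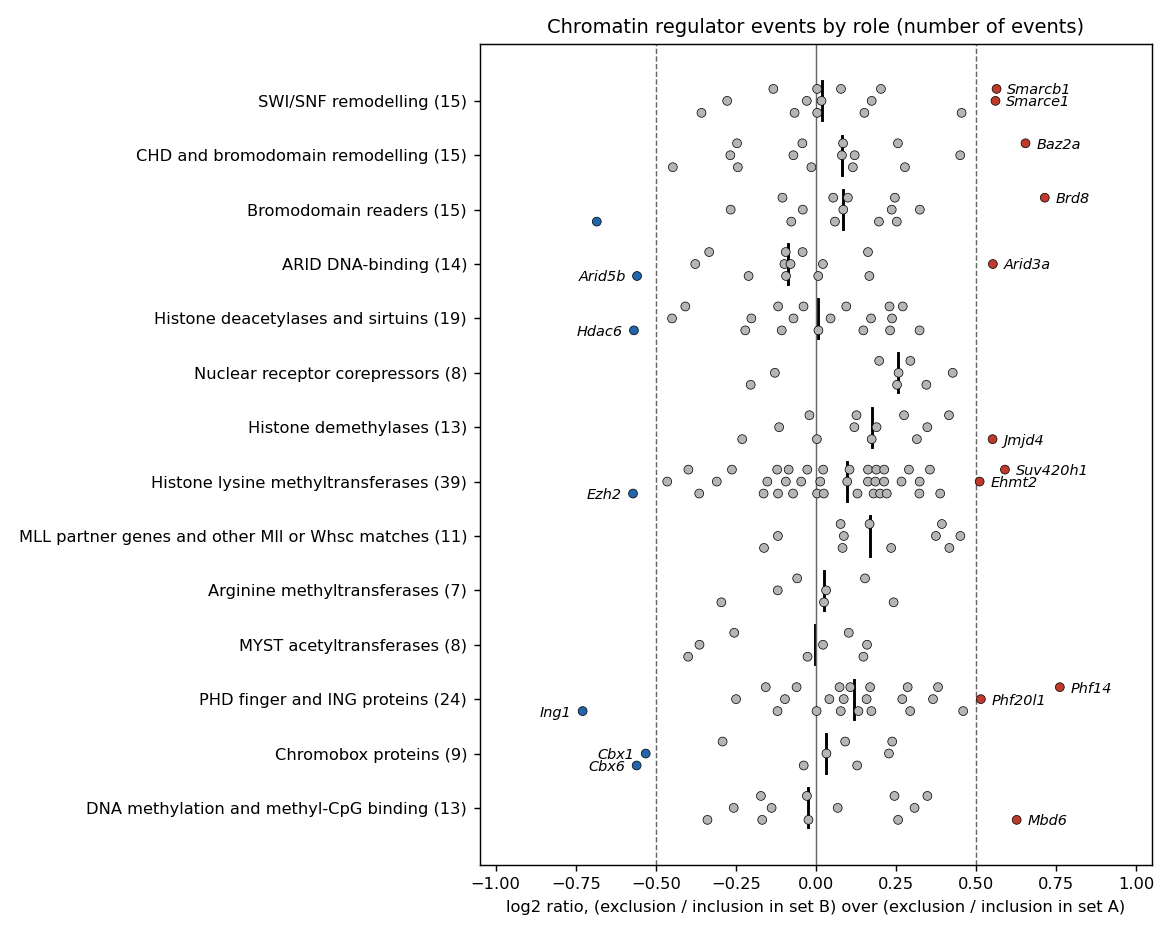
Each point is 1 event, placed by its log2 ratio (x axis, exclusion over inclusion in set B over the same in set A) in rows by the role of its gene, with the number of events in parentheses. Black bars mark the median of a row and dashed lines mark -0.5 and 0.5. The 11 events above 0.5 (red) and the 7 below -0.5 (blue) are spread over 10 of 14 roles, and most points lie between the dashed lines.

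Most genes grouped as SWI/SNF encode ATPases or accessory subunits of a nucleosome remodelling complex, while *Smarcal1* and *Smarcad1* were placed there by name. Among the 15 events of this group, 2 were past the fold (13.3%), both above 0. Counts by role here and below are to be read beside the whole table, where 7.24% of events were past the fold and 55.4% above 0. With 7 to 39 events a role, they are too few to set a family apart. *Smarcb1* encodes a core subunit, and a 130 nt cassette exon of it at chr10:75374381-75384068 had an exclusion intensity of 208 in set A against 286 in set B and an inclusion intensity of 1251 and 1164. Exclusion was thus higher and inclusion lower in set B, and the log2 ratio was 0.56. A second event of *Smarcb1*, an alternative 5' splice site that adds 26 nt, lay just under the fold at 0.45.

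*Smarce1*, which encodes a DNA-binding subunit with an HMG domain, gave 0.56 for a complex event. Here both intensities were lower in set B, exclusion at 288 in set A against 233 in set B and inclusion at 441 and 242. The other 2 events of *Smarce1* were at 0.00 and 0.08. *Smarca2*, one of the alternative ATPases, had 3 events at -0.07, 0.00 and 0.15, the first of them a choice between mutually exclusive exons with exclusion at 3314 and 3065 and inclusion at 996 and 965. At the second, an alternative start, both intensities were lower in set B, exclusion at 382 and 292 and inclusion at 1028 and 784, and their ratio was level.

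The CHD and BAZ families are ATP-dependent remodellers and their partners. They had 15 events, of which 1 (6.67%, against 7.24% of all events), in *Baz2a*, was past the fold. *Baz2a* encodes the large subunit of a complex that silences ribosomal RNA genes. For its 85 nt cassette exon, at chr10:127528832-127545949, exclusion was 80 in set A against 107 in set B, inclusion was 467 and 397, and the log2 ratio was 0.65. The exclusion intensity in set A was among the dim ones, under 100. In this family *Chd7*, a remodeller of enhancers, had the largest log2 ratio among events with all 4 intensities at 100 or more, 0.45, with exclusion near level at 145 and 144 and inclusion at 1011 and 735.

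Bromodomain readers bind acetylated lysine. Of their 15 events 13.3% were past the fold, 1 on each side of 0, against 7.24% of all events. *Brd8*, a subunit of the NuA4 acetyltransferase complex, had the one above 0, a 45 nt cassette exon at chr18:34759875-34762346. Inclusion was level, at 392 in set A against 393 in set B, exclusion was 90 and 148, and the log2 ratio was 0.71. The remaining 3 events of *Brd8* were at 0.05, 0.20 and 0.25. The retained introns of *Brd9*, a bromodomain subunit of SWI/SNF, were at 0.25 and 0.32.

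The ARID genes of this group encode proteins with an AT-rich DNA binding domain. Past the fold were 2 of their 14 events (14.3%, against 7.24% of all events), both alternative transcript starts. For *Arid3a*, an AT-rich site binding transcription factor, exclusion was 122 in set A against 194 in set B and inclusion was 189 and 205, at chr10:79393379-79409229, with a log2 ratio of 0.55. A second start event of *Arid3a* was at -0.04. For *Arid5b*, a DNA-binding partner of a histone demethylase, exclusion was level at 342 and 345, inclusion was 107 and 159, and the log2 ratio was -0.56, at chr10:67705977-67741474. The arrays thus showed the sets apart in the exclusion path for *Arid3a* and in the inclusion path for *Arid5b*. *Arid4b*, of the Sin3 corepressor complex, had a retained intron of 2107 nt at -0.38, with exclusion at 218 and 187 and inclusion at 193 and 215.

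Chromobox proteins carry a chromodomain that binds methylated histone H3. Past the fold were 2 of their 9 events (22.2%, against 7.24% of all events), both below 0. *Cbx6* is a chromodomain subunit of Polycomb repressive complex 1. Its alternative start, at chr15:79624905-79664763, was the brightest of the 18 events past the fold, with no intensity under 1346. Exclusion was 2086 in set A against 1346 in set B, inclusion was 2566 and 2441, and the log2 ratio was -0.56. The other 2 events of *Cbx6*, an alternative 3' splice site and an alternative end, were at 0.09 and 0.13. *Cbx1*, which encodes heterochromatin protein HP1 beta, gave -0.53 for a complex event in which all 4 intensities were under 100, with exclusion at 89 and 72 and inclusion at 59 and 69.

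Since the *Cbx6* and *Arid5b* events concern where transcription starts, the 250 bases before the start that RefSeq annotates for each gene in GRCm38.p6 are shown, at chr15:79834334-79834583 and chr10:68278727-68278976, both on the minus strand and read 5' to 3', with every CG dinucleotide in capitals.
Cbx6: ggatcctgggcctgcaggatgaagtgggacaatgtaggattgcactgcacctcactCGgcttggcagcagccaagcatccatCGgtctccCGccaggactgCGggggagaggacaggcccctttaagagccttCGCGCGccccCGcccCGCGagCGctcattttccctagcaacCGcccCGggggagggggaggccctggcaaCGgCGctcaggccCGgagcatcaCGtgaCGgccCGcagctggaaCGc
Arid5b: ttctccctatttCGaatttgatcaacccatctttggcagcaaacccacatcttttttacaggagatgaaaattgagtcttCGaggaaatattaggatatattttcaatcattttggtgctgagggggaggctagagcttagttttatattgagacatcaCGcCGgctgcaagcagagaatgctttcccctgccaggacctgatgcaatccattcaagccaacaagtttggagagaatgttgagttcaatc
The *Cbx6* sequence held 20 CG dinucleotides and was 68.0% G or C, and the *Arid5b* sequence held 4 and was 42.0% G or C. Over all RefSeq promoters of this length the median was 6 CG dinucleotides and 52.4% G or C, and 37.8% held 10 or more. Of the 114 chromatin regulators, 90 had a promoter in that table, with a median of 20 CG dinucleotides and 64.4% G or C over 137 promoters, of which 80.3% held 10 or more. *Cbx6* thus had a promoter typical of the list in this respect and *Arid5b* a CG-poor one. Which of the starts on the array these sequences serve is not settled, because the table names no build, and *Arid3a* was not matched.

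Histone deacetylases and sirtuins remove acetyl groups from lysine. Of their 19 events, 1 was past the fold (5.26%, against 7.24% of all events). *Hdac6*, which deacetylates tubulin in the cytoplasm, had an alternative 5' splice site of 74 nt at chrX:7524370-7524775, with exclusion at 153 in set A against 113 in set B and inclusion at 189 and 207, a log2 ratio of -0.57. *Hdac9* and *Hdac7* belong to the class IIa deacetylases, which bind MEF2 factors. *Hdac9* had 4 events, from -0.45 for a 132 nt cassette exon (exclusion 225 and 157, inclusion 976 and 930) to 0.24 for an alternative end. *Hdac7* had 2, at -0.04 and 0.09. The ratios of this group were thus centred near 0, with a median of 0.01.

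*Ncor1* encodes a corepressor that ties HDAC3 to unliganded nuclear receptors. None of its 5 events was past the fold. They ran from -0.20 for a 174 nt cassette exon, with exclusion at 1923 and 1633 and inclusion at 1424 and 1393, to 0.34 for an alternative 5' splice site of 41 nt, with exclusion at 94 and 110 and inclusion at 1317 and 1214. The log2 ratios of *Ncor1* thus lay on both sides of 0.

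Lysine methyltransferases were the largest group, with 39 events in 19 genes. Of the 39, 3 were past the fold (7.69%, against 7.24% of all events). *Ezh2*, the catalytic subunit of Polycomb repressive complex 2, had an alternative 5' splice site of 26 nt, within chr6:47508293-47526561, at -0.57. Its exclusion intensities were dim, 84 in set A against 67 in set B, and inclusion was 1258 and 1491. A 126 nt cassette exon of *Ezh2* had the next lowest value, -0.46, with exclusion at 132 and 92 and inclusion at 261 and 251, and the other 3 *Ezh2* events were at -0.07, 0.10 and 0.19.

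*Ehmt2*, which encodes the G9a methyltransferase of histone H3 lysine 9, had a 102 nt cassette exon at chr17:35042401-35042854 that lay just past the fold, at 0.51. Exclusion was 73 in set A against 100 in set B, and inclusion was 312 and 300. The other 4 events of *Ehmt2* were at -0.31, -0.12, 0.02 and 0.22. Its close relative *Ehmt1* had a 138 nt cassette exon at 0.39, with exclusion at 247 and 319 and inclusion at 392 and 387. In both genes the cassette differed through the exclusion path.

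*Suv420h1* (now *Kmt5b*) encodes a methyltransferase of histone H4 lysine 20. A twin cassette of 154 and 51 nt, at chr19:3768340-3782219, had exclusion at 1460 in set A against 2041 in set B and inclusion at 338 and 314, a log2 ratio of 0.59. A 60 nt cassette exon of the gene was at 0.36, a 97 nt cassette exon at 0.29 and an alternative end at 0.01, so that none of its 4 events was below 0. The region of the 60 nt exon covers those of the twin cassette and of the 97 nt exon, so the 3 are not independent measurements. The gene lies 3.25 to 3.27 Mb before the congenic interval on the same chromosome. Whether the animals differed in genotype there was not analysed here. *Smarca2*, the other chromosome 19 member, lay 14.8 to 15.0 Mb beyond the interval.

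Other methyltransferases were within the fold. *Setd3*, which methylates a histidine of actin, gave -0.40 for a 149 nt cassette exon, with exclusion at 525 and 355 and inclusion at 2529 and 2254. *Mll3* (now *Kmt2c*), which methylates histone H3 lysine 4 at enhancers, had 4 events from -0.36 to 0.16. *Prmt1*, the main enzyme of asymmetric arginine dimethylation, had 3 events, at -0.30, -0.12 and 0.03, and none of the 7 arginine methyltransferase events was past the fold. Among 8 events of the MYST acetyltransferases, also with none past the fold, the largest difference was an alternative start of *Myst4* (now *Kat6b*) at -0.40, with exclusion at 716 and 675 and inclusion at 859 and 1068.

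The MLL partner genes had 11 events in 4 genes, none past the fold and 9 above 0 (81.8%, against 55.4% of all events). *Mllt3*, a subunit of the super elongation complex, had 4 events from -0.16 to 0.39. *Mllt4* (now *Afdn*) had 4 events from -0.12 to 0.45, the highest of them a 36 nt cassette exon with exclusion at 735 and 981 and inclusion at 473 and 462. Without *Mllt4* and *Sirt3*, 18 of 204 events (8.82%) were past the fold. Neither gene had an event past it, so the count of 18 could not change. *Jmjd4* and *Setd3*, described here by substrates other than histones, were kept.

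Of 13 events of JmjC and related genes, grouped as histone demethylases, 10 were above 0 (76.9%, against 55.4% of all events). Past the fold was 1 event (7.69%, against 7.24% of all events). That event belonged to *Jmjd4*, whose protein hydroxylates a translation release factor and is not known for histone demethylation. Exclusion was 522 in set A against 762 in set B, inclusion was level at 276 and 275, and the log2 ratio of this complex event, at chr11:59267147-59267379, was 0.55. *Jarid1d* (now *Kdm5d*), a Y-linked demethylase of histone H3 lysine 4, could be expressed by the male pair only, and its 2 events were at -0.02 and 0.19.

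PHD fingers bind the tail of histone H3. The PHD finger and ING genes had 3 of 24 events past the fold (12.5%, against 7.24% of all events). *Ing1*, a reader of trimethylated histone H3 lysine 4 in a Sin3 deacetylase complex, had the lowest log2 ratio of the chromatin regulators, -0.73. For its alternative 5' splice site of 949 nt, at chr8:11556095-11561417, exclusion was 262 in set A against 155 in set B, while inclusion was level at 203 and 199. A complex *Ing1* event without an exclusion path overlaps this region, and its paths had log2 ratios on the other side of 0, at 0.23, 0.15 and 0.37. *Phf14* had the highest, 0.76, for a retained intron of 596 nt at chr6:11957106-11957704, with exclusion at 57 and 65 and inclusion at 425 and 286. The intensity of the form with the intron was thus the one that differed more. The exclusion intensities lay close to the lowest of any chromatin regulator event, 51. Whether the form without the intron differed is therefore not settled. *Phf20l1*, a reader of methylated lysine, had 7 events, the most of any member. A retained intron of 941 nt at chr15:66454379-66455322 was past the fold at 0.51, with exclusion at 74 and 89 and inclusion at 424 and 357, and the other 6 ran from -0.10 to 0.38. An alternative 3' splice site of *Phf17* (now *Jade1*), a scaffold of an acetyltransferase complex, was at 0.46, with exclusion at 118 and 179 and inclusion at 348 and 384.

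The DNA methylation group had 1 of 13 events past the fold (7.69%, against 7.24% of all events). It was a retained intron of 256 nt in *Mbd6*, a member of the methyl-CpG binding domain family. At chr10:126719534-126719792, exclusion was 349 in set A against 449 in set B and inclusion 913 and 761, a log2 ratio of 0.63, the highest of any chromatin regulator event with all 4 intensities at 100 or more. *Mbd1*, which binds methylated CpG, had 2 events at -0.26 and -0.17. *Dnmt3a*, a de novo DNA methyltransferase, had an alternative start at 0.26, with exclusion at 250 and 273 and inclusion at 724 and 662.

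**Figure D2:**
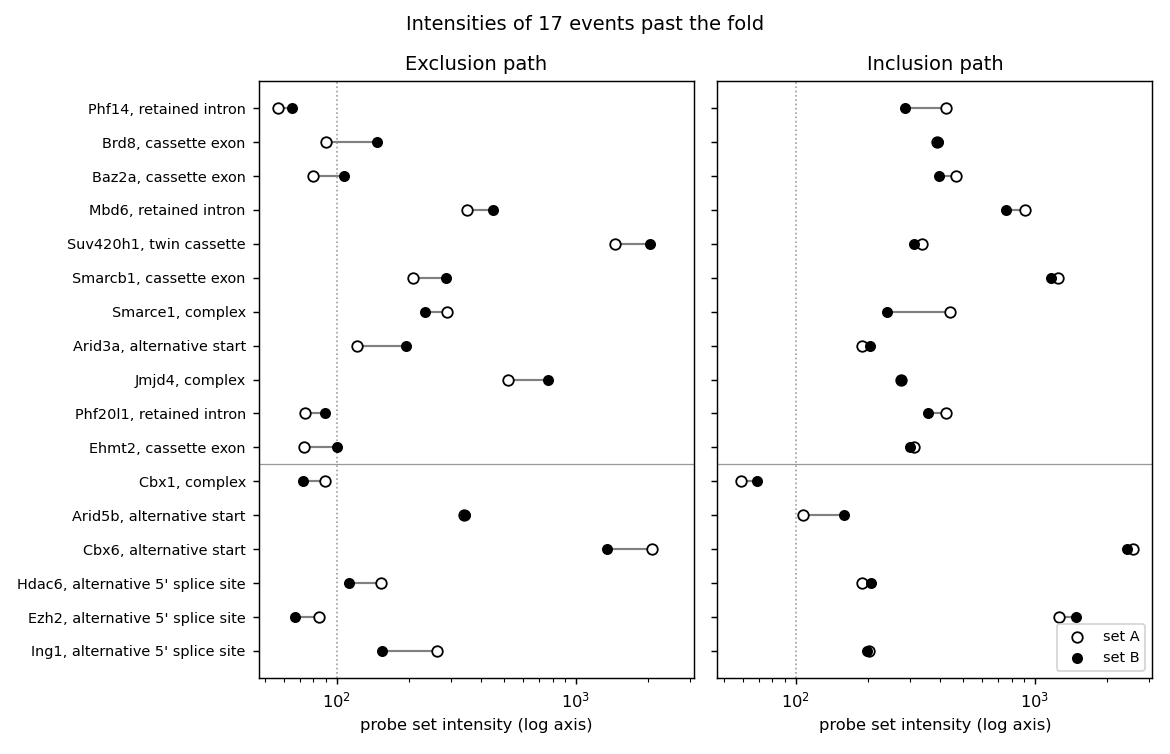
Probe set intensities of 17 of the 18 events past the fold, exclusion path on the left and inclusion path on the right, on log axes, with set A as open and set B as filled points, sorted by log2 ratio and split at 0 by the horizontal line. The dotted line marks an intensity of 100. The exclusion path differed more between the sets in most of them, and the inclusion path did in *Phf14*, *Smarce1* and *Arid5b*.

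The exclusion intensity differed more than the inclusion intensity in 14 events, 9 of the 11 above 0.5 and 5 of the 7 below -0.5. In 6 events both intensities differed in the same direction, by unequal amounts, and in the other 12 in opposite directions. In no gene was more than 1 event past the fold. In 14 of the 18 genes other events were measured, 37 in all, with log2 ratios from -0.46 to 0.45 and a median absolute value of 0.10. Of these 37, 25 lay on the same side of 0 as the event past the fold. Some of them overlap that event, as in *Suv420h1*, so they are not independent of it. Neither this share nor that of the exclusion path was computed over all events, so neither is a trait of chromatin regulators.

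**Figure D3:**
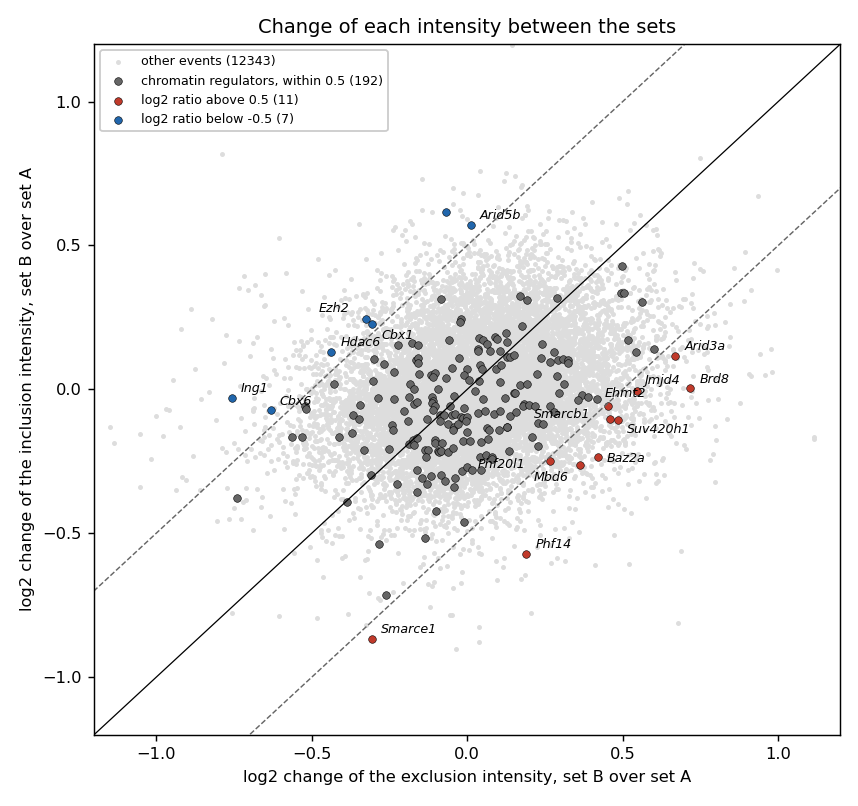
The log2 change of the exclusion intensity (x axis) and of the inclusion intensity (y axis), set B over set A, for 12343 other events (light grey, 7 of them outside the axes) and the chromatin regulators. On the solid diagonal both paths differ equally, and beyond the dashed lines the log2 ratio passes 0.5. The 192 chromatin regulator events within the fold (dark grey) lie in the cloud of other events, *Arid3a* and *Brd8* stand out by exclusion and *Smarce1* and *Phf14* by inclusion.

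The side of 0 was also compared within genes. Of 55 genes with 2 or more events, 31 of them with just 2, 26 had all their log2 ratios on 1 side of 0. The other 29 had ratios on both sides. The same was not counted over all genes, so the split is not a trait of chromatin regulators. Single-event genes numbered 57.

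The 18 events past the fold were 4 cassette exons, 4 alternative 5' splice sites, 3 retained introns, 3 alternative starts, 3 complex events and 1 twin cassette. Cassette exons were the commonest type, 75 of 210 events (35.7%, against 29.9% of all events), and 4 of them (5.33%) were past the fold, against 8.57% of all cassette exons. All 4, in *Brd8*, *Baz2a*, *Smarcb1* and *Ehmt2*, were above 0. The median absolute log2 ratio of the cassette exons was 0.23, against 0.19 for all cassette exons. Alternative 5' splice sites had 4 of 18 past the fold (22.2%, background 10.8%), among them *Ing1*, *Ezh2* and *Hdac6*, and all were below 0, that is with relatively more of the longer exon in set B. Retained introns had 3 of 13 past the fold (23.1%, background 9.86%), in *Phf14*, *Mbd6* and *Phf20l1*, and all were above 0, with relatively less of the unspliced form in set B. Over all events the sides were less uneven, with 47 of 75 alternative 5' splice sites below -0.5 and 69 of 105 retained introns above 0.5. The member counts are small, and no test stands behind a difference between types.

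Alternative starts had 3 of 28 past the fold (10.7%, background 6.32%) and complex events 3 of 17 (17.6%, background 8.38%). The 1 twin cassette past the fold among 4 was that of *Suv420h1*, against a background of 10.5%. None of 39 alternative ends was past the fold (background 2.78%), and none of 15 alternative 3' splice sites (background 9.11%). The median absolute log2 ratio of the alternative ends was 0.12, against 0.14 for all alternative ends.

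**Figure D4:**
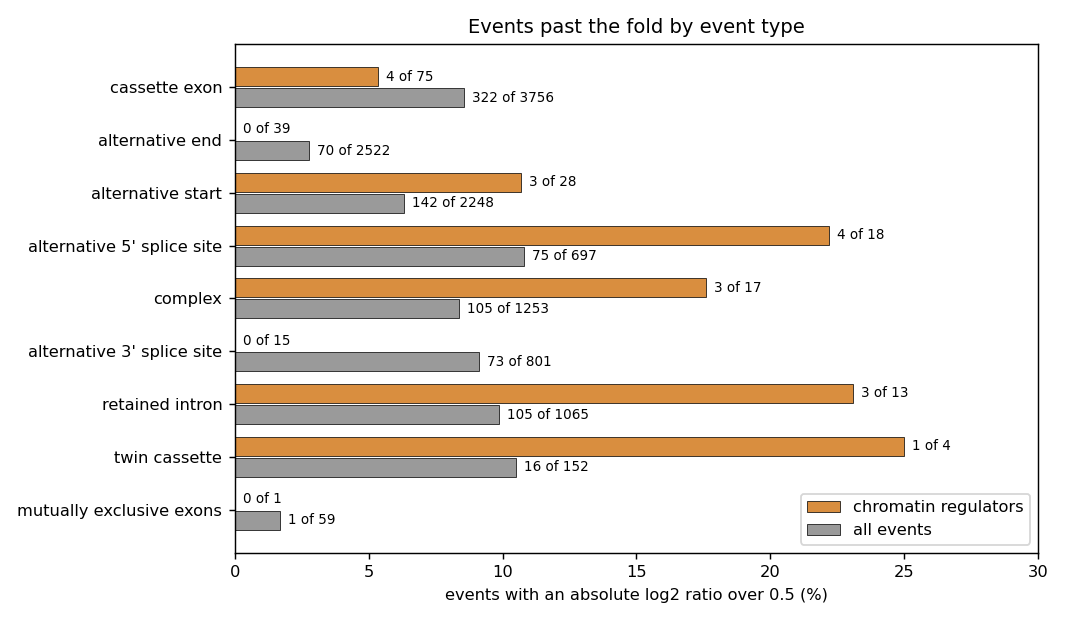
Share of events with an absolute log2 ratio over 0.5 (x axis, %) for each event type, in the chromatin regulators (orange) and in all events of the table (grey), with the counts beside each bar. Alternative 5' splice sites (4 of 18) and retained introns (3 of 13) had larger shares than the same types in the whole table and cassette exons (4 of 75) a smaller one, on small counts.

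The reading frame of the cassettes was close to that of the whole table. The segment length was a multiple of 3 in 38 of 75 cassette exons (50.7%), against 53.2% of all cassette exons with a stated length. Of the 38, 2 were past the fold, the 45 nt exon of *Brd8* and the 102 nt exon of *Ehmt2*, or 5.26% against 7.61% of all such cassettes. Of the 37 others also 2 were past it, the 130 nt exon of *Smarcb1* and the 85 nt exon of *Baz2a*, or 5.41% against 9.56%. Median absolute log2 ratios were 0.22 and 0.23, against 0.18 and 0.20 over all such cassettes, so these were higher in the members while the shares past the fold were lower.

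The share past the fold was above the background among events with a dim probe set and below it among the others. In 32 of the 210 events (15.2%, against 21.0% of all events) at least 1 of the 4 intensities was under 100. Of these 32, 8 were past the fold (25.0%), against 10.3% of all events with an intensity under 100. Of the 178 events with all 4 intensities at 100 or more, 10 were past the fold (5.62%), against 6.42%. The 10 were in *Ing1*, *Hdac6*, *Cbx6*, *Arid5b*, *Arid3a*, *Jmjd4*, *Smarce1*, *Smarcb1*, *Suv420h1* and *Mbd6*. The 8 with an intensity under 100 included those in *Ezh2*, *Cbx1*, *Ehmt2*, *Phf20l1*, *Baz2a*, *Brd8* and *Phf14*, and with 50 added to every intensity the log2 ratio of each but *Phf14* was within the fold. So were then those of *Arid3a*, *Arid5b*, *Hdac6*, *Smarcb1* and *Smarce1*, which left 6 events (2.86%) past it, against 3.13% of all events.

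**Figure D5:**
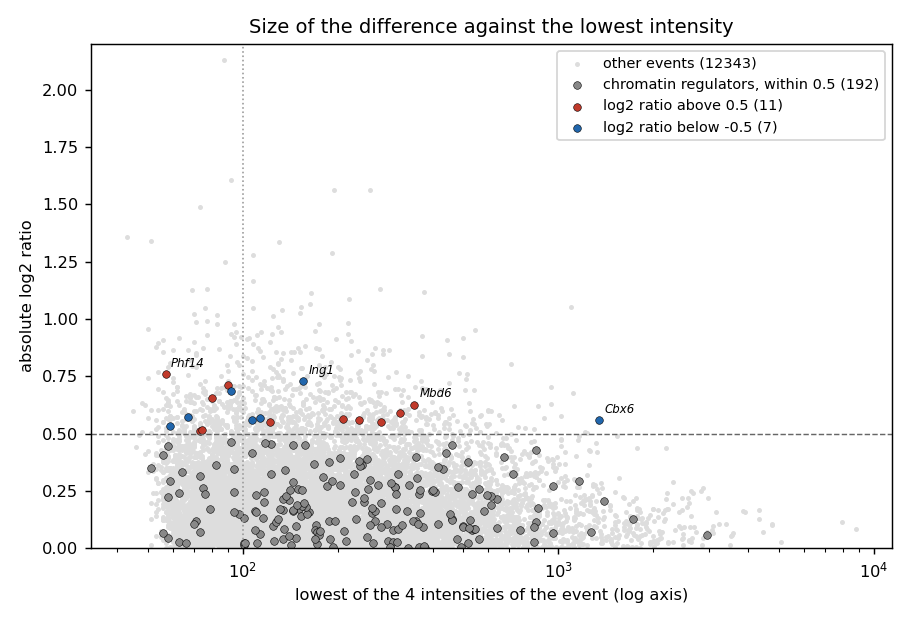
The absolute log2 ratio (y axis) against the lowest of the 4 intensities of an event (x axis, log scale) for 12343 other events (light grey) and the chromatin regulators, with the fold as a dashed and an intensity of 100 as a dotted line. Of the 18 events past the fold, 8 lie left of an intensity of 100, and *Cbx6*, at 1346, lies farthest right.

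The sizes around the fold were close together. Just past it were *Ehmt2* at 0.51 and *Phf20l1* at 0.51, and just within it were the 126 nt exon of *Ezh2* at -0.46, *Phf17* at 0.46 and the 26 nt event of *Smarcb1* at 0.45. At a lower fold of 0.4, 29 events (13.8%) were past it, against 13.7% of all events.

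A list of other chromatin genes that the name rule does not reach, such as Polycomb group, NuRD and histone acetyltransferase genes, gave similar shares. Of 121 listed genes, 65 had 104 events, and 8 events (7.69%) were past the fold, 6 above 0 and 2 below. *Mta1*, a subunit of the NuRD deacetylase complex, had a 36 nt cassette exon at 0.71, with exclusion at 113 in set A against 168 in set B and inclusion at 457 and 414. *Bmi1*, a subunit of Polycomb repressive complex 1, had an alternative start at 0.64, with exclusion at 89 and 109 and inclusion at 671 and 528. *Dot1l*, the methyltransferase of histone H3 lysine 79, had a cassette event of 631 nt at -0.77, with exclusion at 364 and 180 and inclusion at 408 and 345. The remaining events past the fold were in the histone chaperones *Nap1l4* (0.59) and *Nap1l1* (-0.54), the SWI/SNF subunit *Ss18* (0.58), the nucleosome binding protein *Hmgn3* (0.58) and the nuclear receptor coactivator *Ncoa1* (0.53). Their median absolute log2 ratio, 0.17, was that of the members and of all events to 2 decimals.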

How the data were processed

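RNA from the brains of 6 congenic mice was hybridized to 1 array each by the authors, and the labels name Affymetrix Power Tools, with no version. The authors deposited summarized exclusion and inclusion intensities for a set A and a set B as whole numbers, a rounded score for each path of an event already combined over arrays. Background correction, normalization and genome build are not given in the sources used here. The table also holds the authors' own separation scores and q-values for a paired and a standard comparison, which were not used. No depth or spread per animal could be had, and the samples were grouped from the labels.

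From the pooled intensities, the log2 ratio of exclusion over inclusion, set B over set A, was computed on the exclusion path of each event, with no pseudocount. Counts of events past the fold, in all and by event type, intensity and reading frame, were set beside the same over all 12553 events. Counts past the fold by role and counts within genes have no such background of their own. Where an event name had more than 1 exclusion row (32 names), the first was used; for the 108 nt exon of *Chd2* a second row on another chromosome was left out. Names were matched to RefSeq for GRCm38.p6 (114 of 114 genes, 22 through an older symbol), and promoters were read from RefSeq for the same build. Members, roles and lists were chosen with earlier results of these data known. Events were named by a rule: the 8 highest and the 8 lowest log2 ratios with all 4 intensities at 100 or more, the largest of each role, genes with 4 or more events, 10 fixed names (of which *Phf21a* had no event), and any other event past the fold. Results of 2 of these genes are counted in the totals and not reported here. Other events were named for a remark on a gene and chosen after their values were seen. The ratio, the fold and the name rule were tested on simulated data. Alternatives were another fold, the path with the largest ratio, an intensity minimum of 100, a pseudocount of 50, centring on the median, 1 event a gene, and leaving out *Mllt4* and *Sirt3*. The software was pandas 2.3.3, numpy 2.4.6 and scipy 1.17.1 under Python 3.11.15, with figures by matplotlib 3.10.9.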

Additional observations from a re-analysis of the deposited data

How the results depend on the processing

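No paired analysis was possible because the deposited intensities are pooled over the littermate pairs and the authors' own paired scores were not used, and for the same reason no animal could be left out in turn. The 18 events past the fold became 29 at a fold of 0.4. At a fold of 1 they became 0, in 0 genes, against 0.22% of all events and 0.35% of all genes. With all 4 intensities at 100 or more, 10 events in 10 genes were past the fold, and with 50 added to every intensity 6 events in 6 genes, while the median absolute log2 ratio moved to 0.15. With 1 event a gene, 8 events in 8 genes were past it. Subtracting the median of all events left 53.8% of events above 0, and subtracting the median of the event type 54.3%. Either subtraction splits all events of the table evenly about 0, so both shares remained above that of all events. The other 20 of 32 recomputed values stayed near the reported ones, within 1.5 times for a count and within the 95% binomial interval for a median or share. No named event past the fold changed sign, but this could hardly have come out otherwise. Most alternatives leave the log2 ratio of an event as it was, and the medians subtracted were far smaller than the fold. Signal over background could not be assessed, because no background level is given, and 8 of the 18 events past the fold had an intensity under 100.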
